A study of Saccharomyces cerevisiae with 6 samples.

Results

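The genes described here lie within 30 kb of an end of a nuclear chromosome of budding yeast (Saccharomyces cerevisiae), measured on the R64 reference assembly (sacCer3) from the chromosome end to the nearer edge of the gene. They were chosen by position alone, with no measured value, and number 353 of the 7126 rows of the expression table. Genes of the COS, PAU and HXT families (37 genes) and genes whose systematic names start with YLR (11 genes) in the same zone were left out. Of the 353 genes, 342 code for proteins and 11 are pseudogenes, and they lie at 31 of the chromosome ends. They were set beside 5605 annotated nuclear genes that lie more than 30 kb from any end.

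RNA was sequenced from 3 libraries of a strain labelled mms21RINGD, which carries a mutant allele of MMS21, and from 3 libraries of wild type (WT). The product of MMS21 modifies proteins with SUMO, a ubiquitin-like tag, and is a subunit of the Smc5/6 complex that acts on chromosome structure and repair. WT is labelled as W303, a common laboratory background; both strains grew in YPD with CSM to exponential phase at an optical density of 0.6, and ribosomal RNA was depleted before library construction. The labels do not say what the allele changes in the protein, how many clones of it were used or whether replicates came from separate cultures, so p-values here reflect library-to-library spread, which may be technical. In bulk RNA, fewer cells that express a gene and less RNA per cell cannot be told apart.

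The DNA next to telomeres in budding yeast, the subtelomere, holds repeated X and Y' elements and gene families that exist in several near-identical copies. Genes close to a telomere can be kept silent by the Sir2, Sir3 and Sir4 proteins, which Rap1 recruits to the telomere repeats and which also silence the spare mating cassettes HML and HMR. Many subtelomeric genes serve growth on alternative sugars, metal uptake, vitamin synthesis or cell adhesion, functions that are used under particular conditions.

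The sequences below show how differently the reference chromosomes end, since the distance used here is counted from the last base of the assembly. The right end of chromosome XI (chrXI:666757-666816, plus strand) closes in TG-rich telomere repeat, whereas the left end of chromosome XVI (chrXVI:1-60, plus strand) begins without such repeat; in the reference annotation, ends with an annotated Y' element have telomere regions of 5505 to 13897 bases, and ends without one have 431 to 1098 bases.
chromosome XI right end: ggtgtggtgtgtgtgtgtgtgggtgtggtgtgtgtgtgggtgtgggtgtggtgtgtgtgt
chromosome XVI left end: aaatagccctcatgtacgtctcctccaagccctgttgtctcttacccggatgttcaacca

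The next sequences are the 300 bases before the annotated start of 6 members on which the results turn, printed on the strand of the gene from R64. MSC1 (chrXIII:16677-16976, minus strand), GTT1 (chrIX:424514-424813, minus strand) and HSP31 (chrIV:1502161-1502460, minus strand) are among the largest rises, and the capitals mark AGGGG or its reverse complement CCCCT, the core of the stress response element bound by Msn2 and Msn4.
MSC1: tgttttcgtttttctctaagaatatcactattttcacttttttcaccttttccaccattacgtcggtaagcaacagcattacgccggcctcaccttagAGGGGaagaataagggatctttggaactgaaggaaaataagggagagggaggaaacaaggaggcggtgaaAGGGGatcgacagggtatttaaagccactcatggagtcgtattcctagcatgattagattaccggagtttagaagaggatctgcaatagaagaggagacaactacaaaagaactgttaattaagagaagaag
GTT1: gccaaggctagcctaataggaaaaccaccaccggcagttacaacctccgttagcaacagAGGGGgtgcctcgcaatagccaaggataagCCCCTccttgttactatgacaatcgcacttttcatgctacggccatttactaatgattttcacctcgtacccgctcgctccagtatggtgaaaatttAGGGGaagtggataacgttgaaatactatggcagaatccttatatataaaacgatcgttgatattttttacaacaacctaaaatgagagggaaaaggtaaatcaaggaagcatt
HSP31: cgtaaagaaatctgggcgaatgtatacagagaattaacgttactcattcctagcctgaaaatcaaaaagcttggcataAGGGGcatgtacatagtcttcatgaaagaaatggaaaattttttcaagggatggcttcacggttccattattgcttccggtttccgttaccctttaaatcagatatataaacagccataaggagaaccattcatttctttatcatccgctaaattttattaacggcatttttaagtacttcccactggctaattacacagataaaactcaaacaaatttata
ENB1 (chrXV:21312-21611, minus strand) and SIT1 (chrV:27357-27656, plus strand) encode siderophore transporters, and the capitals mark GCACCC or its reverse complement GGGTGC, the core bound by the iron regulator Aft1. In ENB1 the second GCACCC shares letters with a CCCCT.
ENB1: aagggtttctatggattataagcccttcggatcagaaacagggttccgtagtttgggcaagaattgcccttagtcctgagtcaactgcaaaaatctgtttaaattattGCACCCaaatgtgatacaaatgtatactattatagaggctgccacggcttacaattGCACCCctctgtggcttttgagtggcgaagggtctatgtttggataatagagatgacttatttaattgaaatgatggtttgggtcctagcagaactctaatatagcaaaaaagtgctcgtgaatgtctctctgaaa
SIT1: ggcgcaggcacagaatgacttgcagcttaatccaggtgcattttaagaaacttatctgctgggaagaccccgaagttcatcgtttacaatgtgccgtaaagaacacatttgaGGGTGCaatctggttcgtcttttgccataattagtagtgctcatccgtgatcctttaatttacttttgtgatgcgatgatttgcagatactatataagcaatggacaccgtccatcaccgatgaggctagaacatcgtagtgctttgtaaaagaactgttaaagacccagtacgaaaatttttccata
PHO12 (chrVIII:551799-552098, plus strand) encodes a secreted acid phosphatase and gave the largest fall, and the capitals mark CACGTG, a core bound by the phosphate regulator Pho4.
PHO12: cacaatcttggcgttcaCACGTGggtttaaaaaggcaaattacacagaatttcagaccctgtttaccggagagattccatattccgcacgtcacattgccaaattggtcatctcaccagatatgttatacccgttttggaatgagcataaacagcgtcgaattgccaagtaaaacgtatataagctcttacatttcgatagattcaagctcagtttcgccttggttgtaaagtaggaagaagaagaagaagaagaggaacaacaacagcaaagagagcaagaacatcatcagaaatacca

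The libraries held 19.3, 24.0 and 20.1 M reads (M, mega) in mms21RINGD replicates 1 to 3 and 24.6, 20.9 and 21.7 M reads in WT replicates 1 to 3, as recovered from the deposited values. A gene of 1 kb with 3 reads stands at 0.122 to 0.156 RPKM (reads per kilobase of gene and per M reads of the library), which was taken as the floor of detection; it covers counting error only. WT replicate 1 stood apart: over 5925 features its median squared difference from WT replicates 2 and 3 was 14.8 and 19.7 times the counting noise, against 1.64 to 2.15 times between mms21RINGD replicates and 2.07 times between WT replicates 2 and 3. MMS21 itself read 16.6, 12.9 and 13.5 RPKM in mms21RINGD and 3.23, 3.04 and 2.18 RPKM in WT, a difference of 2.01 ± 0.15 on the log2(RPKM + 1) scale (SE, limma adjusted p = 0.000152; exact two-sided permutation p = 0.1, the smallest that 3 against 3 allows). The groups of this gene did not overlap; the level does not show which allele a library carries. All fold changes below on a log2 scale are of log2(RPKM + 1), mms21RINGD minus WT, which understates the change of low genes.

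Genes near chromosome ends were weakly expressed in WT. The median of the 353 genes was 4.94 RPKM in the mean of the WT libraries, against 21.5 RPKM for the 5605 genes farther away. Per library the median of the end genes was 7.37, 7.83 and 7.79 RPKM in mms21RINGD and 5.27, 4.57 and 4.30 RPKM in WT, so that every mms21RINGD library lay above every WT library. The same order held for the genes farther away, with 26.8, 27.6 and 27.98 RPKM in mms21RINGD and 23.4, 20.8 and 20.2 RPKM in WT. Under 1 RPKM in WT were 100 of the end genes (28.3%) and 184 of the others (3.28%), and 100 RPKM or more was reached by 22 (6.23%) and 875 (15.6%). The end genes took 1.63% to 1.65% of all reads in mms21RINGD and 1.55% to 1.60% in WT.

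The level followed the distance. The median WT level was 0.232 RPKM for the 100 genes within 10 kb of an end, 5.23 RPKM for the 116 genes at 10 to 20 kb and 12.6 RPKM for the 137 genes at 20 to 30 kb. Near-identical copies followed it too, in 65, 33 and 13 genes of these zones, 111 (31.4%) in all against 170 (3.03%) of the genes farther away. A gene counts as having a copy when other reference sequence matches at least 50% of its length at 95% identity or more. Such matches may be spread over several places and need not lie in genes. A read that falls equally well on copies may be counted on one, on none or on several of them, and the sources used here do not give the counting method, which leaves the level of such a gene uncertain.

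**Figure D1:**
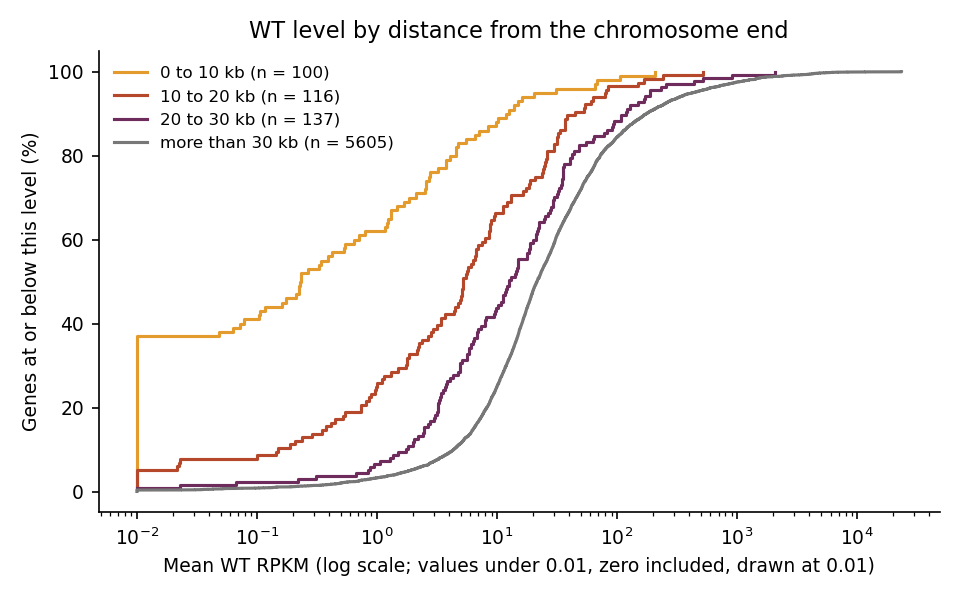
Cumulative share of genes (vertical axis, %) at or below a mean WT level (horizontal axis, RPKM, log scale), for end genes in 3 zones of distance and for genes more than 30 kb away. The curve of the 100 genes within 10 kb lies highest, with a median of 0.232 RPKM, and the curve of the 5605 genes beyond 30 kb lowest, with a median of 21.5 RPKM.

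In all 6 libraries 33 end genes were listed at 0, and 29 of these have a near-identical copy. They include the helicase genes of Y' elements YRF1-1, YRF1-3, YRF1-6, YRF1-7 and YRF1-8, the enolase-related ERR1, ERR2 and ERR3, the isomaltases IMA3 and IMA4, the sorbitol dehydrogenase SOR2, the vacuolar transporter VBA3 and the cassette genes HMLALPHA1, HMLALPHA2 and HMRA2. The 4 without a copy were YGL262W, YNR071C, AIF1 and YOL166W-A. AIF1 and YNR071C, an apoptosis-related oxidoreductase gene and an uncharacterized gene, share the right end of chromosome XIV with PDR18, a drug transporter gene that read 0 RPKM in every mms21RINGD library and 0.0101, 0.0120 and 0.0460 RPKM in WT. The strain background differs from the reference strain, and whether these genes are present in it was not tested.

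Of the 353 genes, 268 averaged 1 RPKM or more across libraries and entered the test, which was fitted on all 6731 features that passed. In mms21RINGD 151 were higher (56.3%) and 14 lower (5.22%) at a limma adjusted p under 0.05, and 103 were not called; over all features tested 42.7% were higher and 10.9% lower, 53.6% in either direction, and over the genes farther away 44.4% and 11.4%. A change of at least 2-fold was called for 42 genes, all higher, against 8.38% of all features 2-fold higher and 0.134% 2-fold lower. The median log2 fold change was 0.47 for the end genes and 0.24 for all features. Higher with no overlap between the groups were 179 genes and lower 22, beside 50.1% and 14.3% of all features.

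The counts depended on how libraries were scaled and on WT replicate 1. With median-of-ratios scaling, which moves the median of all features to 0, 110 end genes were higher and 41 lower (25.4% and 27.1% of all features), and with quantile normalization 77 were higher and 64 lower (20.4% and 34.5%) with a median of -0.02. Without WT replicate 1 the counts were 187 higher and 22 lower, beside 3865 and 1029 of all 6741 features tested. Without any other single library they were 103 to 117 higher and 3 to 9 lower. Over all features tested those fits gave 1848 to 2138 higher and 433 to 529 lower, of 6706 to 6739. With all libraries 2875 of 6731 features were higher and 732 lower.

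Part of the excess over all features was shared by weakly expressed genes elsewhere, and how much depended on the matching. The log2 fold change ran with the WT level in both sets, with a Spearman correlation across genes of -0.45 over the 268 end genes and -0.54 over 5479 genes farther away; genes of a library are not independent, and the WT level enters both quantities. Matched by bins of mean WT RPKM, genes farther away would give 53.9% higher and 6.5% lower, so the end genes stood 2.42 percentage points above in the share called higher. The end genes' median deviation from the median of their bin was 0.029 on the log2 scale, with 146 above and 122 below. Matched on the mean of all 6 libraries, which leans less on WT alone, genes farther away would give 49.8% higher. The difference was then 6.5 points and 0.083. The 15 end genes and 58 other genes tested with under 1 RPKM in WT passed the filter only through their mms21RINGD values. The direction of these genes was therefore set by the filter. Without the filter the difference matched on WT was -0.76 points. That value takes in 33 end genes and 6 other genes at 0 in all 6 libraries, which could not be called. The difference between end genes and matched genes was not tested.

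By level, the share of end genes called higher lay above that of other genes in some bins and below it in others. Between 3 and 10 RPKM in WT, 75% of 80 end genes and 68.3% of 1002 other genes were higher, with medians of 0.55 and 0.49. Between 10 and 30 RPKM the shares were 42.6% of 61 and 48.1% of 1915, with a median of 0.26 in both. Between 30 and 100 RPKM they were 42.2% of 45 and 33.1% of 1412, with medians of 0.13 and 0.11. The bins parted most in the falls of the most highly expressed genes: at 100 RPKM and over, 22.7% of 22 end genes and 44.7% of 875 other genes were lower, with medians of 0.09 and -0.13.

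**Figure D2:**
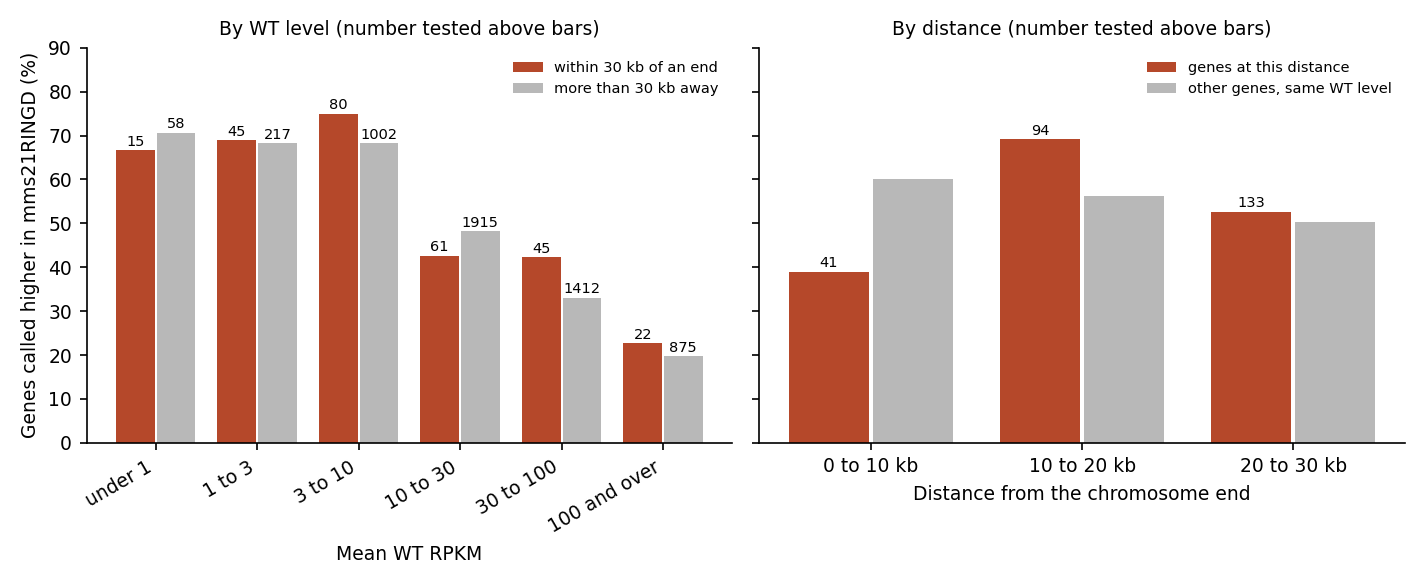
Share of tested genes called higher in mms21RINGD (vertical axes, %), by mean WT level (left, RPKM bins; end genes and genes more than 30 kb away) and by distance from the end (right; genes of the zone and the share that other genes of the same WT level give). The left bars of both sets are higher under 10 RPKM than above it, and at 0 to 10 kb the end genes lie below the matched share, 39% and 60.05%. Genes under 1 RPKM in WT passed the filter only through their mms21RINGD values, so their direction was set by it.

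Within the zone, the share of rises was not even. Within 10 kb of an end, 41 of 100 genes could be tested; 16 were higher (39%) and 3 lower, where genes farther away of the same WT level would give 60.05% higher. At 10 to 20 kb, 65 of 94 were higher (69.1%) and 2 lower, against a matched 56.3%. At 20 to 30 kb, 70 of 133 were higher (52.6%) and 9 lower, against a matched 50.3%. Genes at 30 to 60 kb gave 48.3% of 451 and genes beyond 60 kb 44.1% of 5028. From 30 to 60 kb the share was not even either. It was 54.0% of 139 at 30 to 40 kb, 38.9% of 162 at 40 to 50 kb and 53.3% of 150 at 50 to 60 kb. The medians of the log2 fold change were 0.26, 0.57 and 0.38 in the 3 zones, then 0.27 and 0.24.

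In steps of 5 kb the number higher was 4 of 16, 12 of 25, 29 of 41, 36 of 53, 35 of 65 and 35 of 68. Across the 268 genes the Spearman correlation of the log2 fold change with distance was -0.06, so no single slope describes the zone. The gap within 10 kb was smaller for genes without copies: among the 27 tested genes there without a near-identical copy, 13 were higher (48.1%, matched 60.4%) and 0 lower, and their median deviation from matched genes was 0.006. Without the filter on low values, 29 of the 100 genes within 10 kb were higher (29.0%, matched 49.7%; 39% of all features were higher and 9.95% lower without the filter). Genes at 0 in all 6 libraries could not be called in that fit. Within 10 kb they were 18 of 50 genes at ends with an annotated Y' element and 8 of 50 at ends without one. Of 5605 genes farther away only 6 stood at 0, so part of the gap without the filter was fixed in advance. The differences between zones were not tested.

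**Figure D3:**
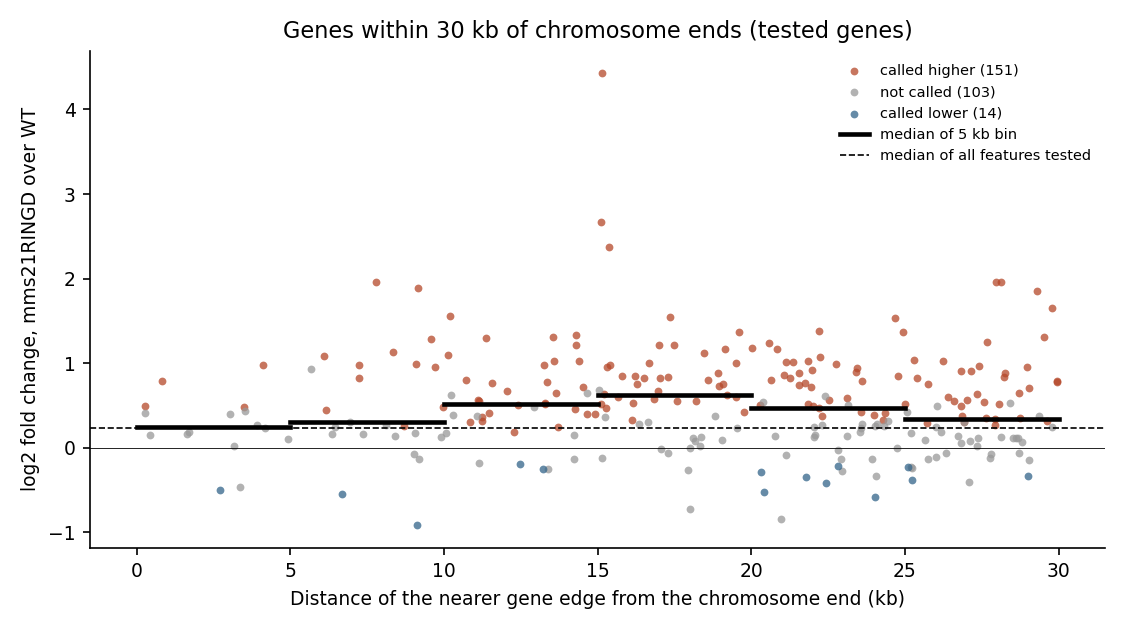
Log2 fold change of each of the 268 tested end genes (vertical axis, mms21RINGD over WT) against its distance from the chromosome end (horizontal axis, kb), coloured by call, with the median of each 5 kb bin (bars) and of all features (dashed line). The bin medians are highest from 10 to 25 kb, and the 3 largest rises, MSC1, HXK1 and GTT1, lie at 15.1, 15.1 and 15.4 kb on different chromosomes.

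Ends with an annotated Y' element and ends without one were set side by side within 10 kb. At 16 ends with Y', 50 genes had a median WT level of 0.106 RPKM, 42 had a copy, 17 could be tested and 5 were higher. At 15 ends without Y', 50 genes had a median of 0.534 RPKM, 23 had a copy, 24 could be tested and 11 were higher. Over 30 kb the shares higher were 54.5% of 132 and 58.1% of 136. By direction of transcription, 80 of 142 genes transcribed toward the end (56.3%) and 71 of 126 transcribed away from it (56.3%) were higher.

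No chromosome end had a median below 0 in the fit described. The median log2 fold change per end, over 3 to 14 tested genes, was between 0.13 and 0.98 and lay above the median of all features at 27 of 31 ends; with quantile normalization the median of all end genes is -0.02, so this direction depends on the scaling. The left end of chromosome XI had the highest median, 0.98, with 6 of 7 genes higher, followed by the left ends of VI (0.90, 7 of 9), XV (0.84, 9 of 11) and I (0.77, 6 of 7). Some genes counted higher at these ends passed the filter only through their mms21RINGD values, among them MCH2 at the left end of XI. The lowest medians were at the left ends of XIV (0.13, 3 of 8 higher) and XVI (0.16, 2 higher and 2 lower of 6). At least 1 lower gene was found at 12 ends. Of 231 pairs of neighbouring end genes 80 (34.6%) were both higher, and of 5463 pairs farther away 1208 (22.1%). Of single tested genes 56.3% and 44.4% were higher in these sets, which by itself gives more such pairs among end genes. Whether rises cluster was not tested.

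**Figure D4:**
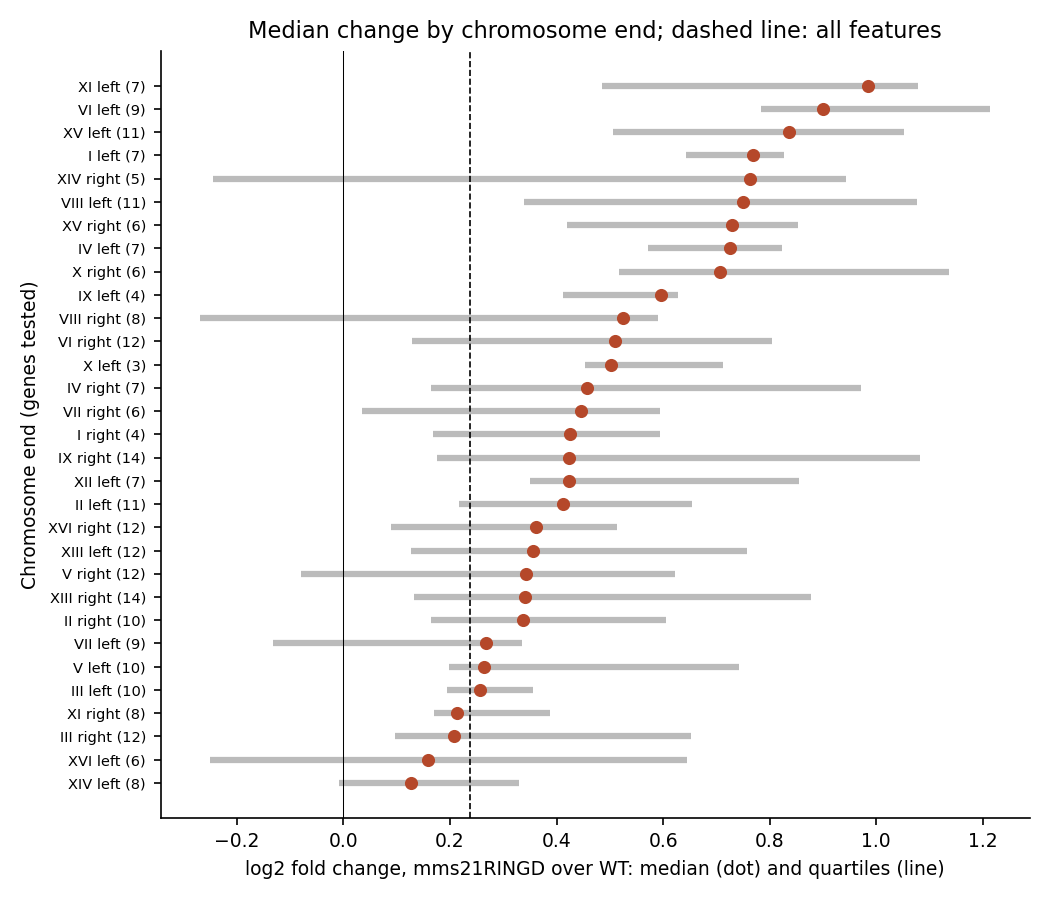
Median (dot) and quartiles (line) of the log2 fold change, mms21RINGD over WT (horizontal axis), of the tested genes at each of 31 chromosome ends (vertical axis, number tested in brackets); the dashed line is the median of all features. All dots lie right of 0, between 0.13 and 0.98.

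The largest rise among genes averaging 10 RPKM or more was that of MSC1, named for meiotic sister chromatid recombination. It read 169, 186 and 193 RPKM in mms21RINGD and 12.2, 5.71 and 6.0 RPKM in WT. This is 22.9-fold, a log2 fold change of 4.43 ± 0.26 (SE, limma adjusted p = 6.31e-05), and no other end gene reached 3 on that scale. GTT1, a glutathione S-transferase that detoxifies electrophiles, read 230, 233 and 241 RPKM in mms21RINGD and 53.4, 42.8 and 38.6 RPKM in WT (5.22-fold; 2.37 ± 0.12, limma adjusted p = 4.37e-05). Neither gene's groups overlapped.

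HXK1, the hexokinase isozyme that glucose represses, read 116, 116 and 124 RPKM in mms21RINGD and 72.7, 9.85 and 7.26 RPKM in WT. Its log2 fold change was 2.67 ± 0.78 (limma adjusted p = 0.0269), and the spread came from WT replicate 1: the value was 3.66 without that library, and the call was lost when any other library was left out. HXK2, the isozyme of growth on glucose, lies 23.9 kb from the left end of chromosome VII and was not called, at 847, 788 and 816 RPKM in mms21RINGD and 1080, 836 and 797 RPKM in WT.

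HSP31, a methylglyoxalase with chaperone activity, read 106, 111 and 115 RPKM in mms21RINGD and 48.6, 30.6 and 27.3 RPKM in WT (1.66 ± 0.20, limma adjusted p = 0.00106). Its relatives HSP32, HSP33 and SNO4 have near-identical copies and were below the filter. HSP33 had 9, 15 and 7 reads in mms21RINGD and 0, 1 and 0 reads in WT. HSP32 had 0, 1 and 1 reads in mms21RINGD and 0, 0 and 1 reads in WT, and SNO4 was listed at 0 throughout. The VMR1 gene of a vacuolar drug transporter read 42.8, 45.1 and 43.1 RPKM in mms21RINGD and 13.9, 10.9 and 7.52 RPKM in WT (1.96 ± 0.19, limma adjusted p = 0.000439). YPS6, a cell surface aspartyl protease, lies 7.78 kb from its end and read 19.9, 20.3 and 20.3 RPKM in mms21RINGD and 6.14, 3.92 and 3.57 RPKM in WT (1.96 ± 0.17, limma adjusted p = 0.000262).

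The other 6 of the 12 largest rises lay between 2.32-fold and 3.8-fold, with no overlap between groups. They were YNR066C and YML131W, which the annotation calls uncharacterized, SRY1, a hydroxyaspartate ammonia-lyase, ECM21, an arrestin-like adaptor of the ubiquitin ligase Rsp5, the pseudogene AAD6 and the siderophore transporter SIT1. YNR066C had 51.7, 55.3 and 54.5 RPKM in mms21RINGD and 16, 13.6 and 12.9 RPKM in WT, with the smallest adjusted p of the 12 (limma, 4.05e-05). All 12 were called higher in every leave-one-out fit except HXK1, and quantile normalization or median-of-ratios scaling left all 12 called higher.

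**Figure D5:**
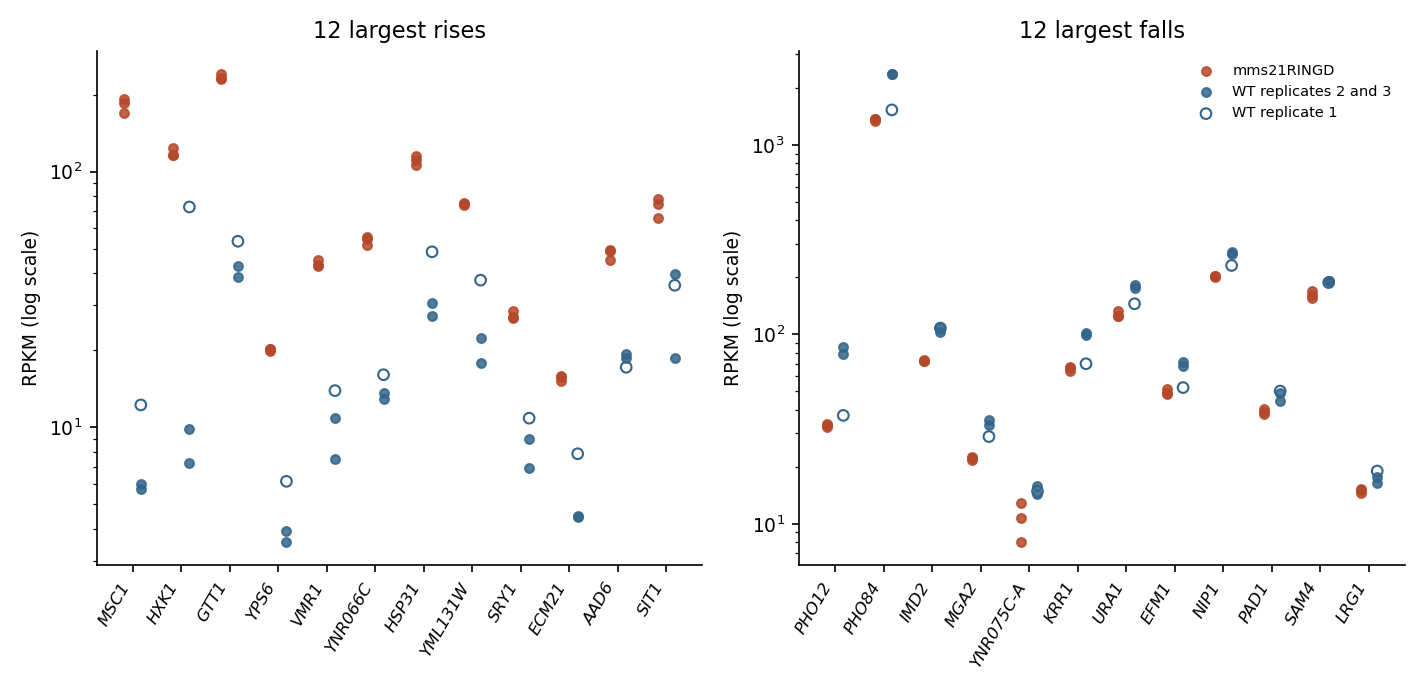
RPKM of each library (vertical axes, log scale) for the 12 largest rises (left) and the 12 largest falls (right) among end genes averaging 10 RPKM or more whose groups do not overlap; mms21RINGD libraries stand left of WT libraries, and the open circle is WT replicate 1. MSC1 separates the groups most, and in HXK1, PHO12 and PHO84 WT replicate 1 lies nearer to the mms21RINGD libraries than the other WT libraries do.

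The AGGGG core was counted in the 300 bases before the start, on both strands, of every protein-coding gene. It was present in 20 of 41 end genes that rose at least 2-fold (48.8%), in 38 of 148 that rose (25.7%), in 13 of 100 tested and not called (13.0%), and in 22.2% of all 5987 genes. Genes farther away that rose at least 2-fold held it in 51.1% of cases, those that rose in 30.6% and those not called in 17.2%; the differences between the sets were not tested. Of the 11 largest rises with such a window, 6 held it. TTACTAA, a site of the oxidative stress factor Yap1, was in 7.04% of end genes and 7.82% of all genes.

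Falls were fewer and smaller. None of the 14 genes called lower reached 2-fold on the log2(RPKM + 1) scale. PHO12 read 33.8, 32.3 and 33.2 RPKM in mms21RINGD and 37.3, 79.2 and 85.9 RPKM in WT (-0.92 ± 0.30, limma adjusted p = 0.0386), and it has a near-identical copy, PHO11. PHO84, the high-affinity phosphate transporter and the most highly expressed end gene, read 1365, 1375 and 1337 RPKM in mms21RINGD and 1529, 2361 and 2362 RPKM in WT (-0.59 ± 0.17, limma adjusted p = 0.0243). The calls of both were lost when any library other than WT replicate 1 was left out, and without WT replicate 1 the values were -1.29 for PHO12 and -0.80 for PHO84; with quantile normalization PHO84 (-0.36) was not called. An RNA gene annotated on the other strand overlaps PHO84, and reads of the strands cannot be told apart here.

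All 5 phosphate genes in the zone were tested, none being called higher and 2 lower; the median log2 fold change was -0.59. GIT1, a glycerophosphoinositol transporter, had 35.7, 31.5 and 33.8 RPKM in mms21RINGD and 32.8, 64.1 and 83.6 RPKM in WT, and PHO11 had 9.46, 8.06 and 8.56 RPKM in mms21RINGD and 5.52, 18.3 and 17.8 RPKM in WT. In both the groups overlapped through WT replicate 1, and both were called lower without it. PHO89, a sodium-dependent phosphate transporter, was not called and read 34.2, 33.2 and 33.4 RPKM in mms21RINGD and 10.4, 26.1 and 33.9 RPKM in WT. CACGTG was in the window of 2 of the 5 genes and of 3.56% of all genes.

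The falls of IMD2, MGA2 and NIP1 kept their call in every leave-one-out fit. IMD2, an IMP dehydrogenase of guanine nucleotide synthesis, read 73.2, 72.4 and 72.0 RPKM in mms21RINGD and 108, 108 and 103 RPKM in WT (-0.55 ± 0.05, limma adjusted p = 0.00041); it has a near-identical copy, so its level is uncertain. MGA2, a membrane-bound activator of the fatty acid desaturase gene, read 21.6, 22.6 and 22.1 RPKM in mms21RINGD and 28.9, 35.1 and 33.1 RPKM in WT (-0.52 ± 0.08, limma adjusted p = 0.00303). NIP1, a subunit of translation initiation factor eIF3, read 202, 202 and 200.3 RPKM in mms21RINGD and 231, 272 and 266 RPKM in WT (-0.34 ± 0.07, limma adjusted p = 0.00908). The groups of all 3 genes stood clear of each other. Further falls were called for KRR1, a factor of small ribosomal subunit assembly, URA1 of pyrimidine synthesis, the elongation factor methyltransferase EFM1, PAD1, SAM4, LRG1 and YNR075C-A; each lost its call without at least 1 library, KRR1 and EFM1 without any library other than WT replicate 1. FEX2 and MNT2 made up the 14, by -0.26 and -0.20.

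Among the listed genes of metal uptake, those called higher were genes for iron. Of 13 listed genes for iron and other metals, 12 were tested, 7 were higher and none lower, with a median of 0.50. With quantile normalization 4 were higher and 1 lower, with a median of -0.04. Beside this list and those that follow, 56.3% of all tested end genes and 42.7% of all features were higher. Of genes farther away with 1 to 3 and 3 to 10 RPKM in WT, 68.2% and 68.3% were higher, with medians of 0.74 and 0.49. The siderophore transporters, which import iron bound to microbial chelators, were all higher. SIT1 read 74.9, 78.3 and 66.0 RPKM in mms21RINGD and 35.9, 39.9 and 18.6 RPKM in WT (1.26 ± 0.27, limma adjusted p = 0.00942). ENB1 read 52.2, 53.3 and 48.0 RPKM in mms21RINGD and 27.1, 31.5 and 18.2 RPKM in WT (1.01 ± 0.19, limma adjusted p = 0.00564). ARN2 (1.13) and ARN1 (0.75) rose too, ARN1 not without mms21RINGD replicate 1 or 2, nor under quantile normalization (0.48) or with median-of-ratios size factors (0.50). Within each of these genes WT replicate 3 was the lowest library.

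The ferric reductase FRE2 read 10.2, 10.4 and 10.4 RPKM in mms21RINGD and 4.39, 5.27 and 4.55 RPKM in WT (0.98 ± 0.09, limma adjusted p = 0.000325). FIT1, a cell wall mannoprotein that retains siderophores (0.56), and FRE5 (0.35) were called but lost the call without each of 4 libraries. GCACCC stood in the window of 5 of the 7 genes called, of 7.04% of all end genes and of 4.06% of all genes. The arsenic resistance genes ARR1, ARR2 and ARR3, within 10 kb of the right end of XVI, were not called. The zinc transporter gene ZRT1 spread widely in WT, with 81.2, 74.3 and 78.4 RPKM in mms21RINGD and 40.03, 235 and 294 RPKM in WT; it was not called (-0.85), and was called lower, at -1.74, without WT replicate 1.

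The list around polyol and sugar metabolism also holds aquaporins and a protease, and was written with earlier results of these data known. All 7 tested of its 10 genes were higher, with a median of 1.37, and 6 remained called with quantile normalization. STL1, the glycerol symporter that glucose inactivates, read 9.87, 9.66 and 8.54 RPKM in mms21RINGD and 3.32, 3.02 and 2.58 RPKM in WT (1.38 ± 0.11, limma adjusted p = 0.000204). DSF1, a mannitol dehydrogenase with a near-identical copy, read 2.27, 2.48 and 2.24 RPKM in mms21RINGD and 0.242, 0.412 and 0.214 RPKM in WT. DSF1 passed the filter only through its mms21RINGD values. The dihydroxyacetone kinase DAK2 (0.90) and the aquaporins AQY1 (1.03) and AQY3 (1.16) were higher as well. The list also holds HXK1 and the protease YPS6, which are among the 12 largest rises.

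Genes for alpha-glucosides, the maltose-like sugars, rose less. All 7 tested of 13 were higher, between 0.26 for the maltose transporter gene MAL31 and 0.71 for the isomaltase gene IMA1, with a median of 0.52; median-of-ratios scaling left 3 higher, and quantile normalization left none higher and 1 lower, with a median of -0.04. IMA1 read 4.46, 5.67 and 5.36 RPKM in mms21RINGD and 3.58, 2.57 and 2.21 RPKM in WT. MAL31, IMA2 and IMA5 lost the call without any library other than WT replicate 1, and IMA1 without mms21RINGD replicate 2 or 3. IMA2 passed the filter only through its mms21RINGD values. The maltase genes MAL12 and MAL32, which have near-identical copies, were below the filter. MAL12 had 47, 55 and 37 reads in mms21RINGD and 21, 26 and 16 reads in WT. The permease genes MPH2 and MPH3 were below it too. MPH2 had 5, 5 and 11 reads in mms21RINGD and 6, 9 and 6 reads in WT, with overlap. MPH3 had 16, 21 and 24 reads in mms21RINGD and 17, 16 and 9 reads in WT.

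The flocculin genes FLO1, FLO9 and FLO10, which encode cell wall adhesins, were all higher, by 0.47, 0.38 and 0.67, though with quantile normalization none was higher and 1 was lower. FLO10 read 3.53, 3.65 and 3.13 RPKM in mms21RINGD and 1.71, 1.79 and 1.84 RPKM in WT (limma adjusted p = 0.00583). FLO1 and FLO9 have near-identical copies over 62.6% and 75.1% of their length, and lost their calls without 4 and 5 of the single libraries. Of 6 aryl-alcohol dehydrogenase genes, 5 were tested and 4 were higher, with a median of 0.55 (2 higher and 2 lower with quantile normalization). AAD10 read 12.6, 13.5 and 13.9 RPKM in mms21RINGD and 6.74, 5.08 and 3.93 RPKM in WT (1.22 ± 0.16, limma adjusted p = 0.0016). AAD3, the one closest to an end at 1.64 kb, was not called, with 13.4, 14.7 and 14.8 RPKM in mms21RINGD and 12.8, 12.6 and 12.5 RPKM in WT.

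The listed vitamin synthesis genes near the ends, which do not include BIO2, all have near-identical copies. Of 8, 5 were tested and 4 were higher, with a median of 0.85; with quantile normalization 1 was higher. SNZ3 of vitamin B6 synthesis read 3.99, 3.94 and 4.26 RPKM in mms21RINGD and 1.81, 0.694 and 0.821 RPKM in WT (1.30 ± 0.22, limma adjusted p = 0.00381). THI13 of thiamine synthesis read 1.78, 1.83 and 1.60 RPKM in mms21RINGD and 0.516, 0.702 and 0.360 RPKM in WT. THI13 and THI11, both called higher, passed the filter only through their mms21RINGD values. SNO3 was not called (0.38). THI12 was below the filter and had 30, 36 and 29 reads in mms21RINGD and 3, 8 and 5 reads in WT. THI5, also below it, had 8, 12 and 13 reads in mms21RINGD and 3, 2 and 2 reads in WT. In SNO2, below it too, the groups overlapped, with 11, 16 and 13 reads in mms21RINGD and 17, 16 and 10 reads in WT.

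Genes of sulfur compounds and amino acid transport were split. Of 15, 14 were tested, 7 were higher and 1 lower, with a median of 0.34; with quantile normalization 4 were higher and 4 lower. The sulfate permease SUL1 read 12.3, 13.4 and 12.9 RPKM in mms21RINGD and 5.60, 6.12 and 5.83 RPKM in WT (1.02 ± 0.08, limma adjusted p = 0.000152). SAM4, a methyltransferase that makes methionine, was lower at 161, 155 and 169 RPKM in mms21RINGD and 188, 190 and 192 RPKM in WT, a call lost without mms21RINGD replicate 2. CHA1, the serine and threonine deaminase, read 56.5, 55.8 and 57.1 RPKM in mms21RINGD and 47.0, 25.2 and 24.6 RPKM in WT, and its call was lost without any library other than WT replicate 1. HPA2, an acetyltransferase gene in this list, rose by 1.53 (limma adjusted p = 0.0015).

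The remaining lists held few genes that could be tested. Neither ADH4 nor ADH7, alcohol dehydrogenases, was called. In the list around multidrug export PUG1, a porphyrin transporter gene, was higher (0.83) and RDS1 was not called; 2 of its 4 genes were below the filter.

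The silent mating cassettes are classical targets of Sir silencing, but their copies limit what these values show. HMLALPHA1, HMLALPHA2 and HMRA2 were listed at 0 in all libraries, and each has a near-identical copy. HMRA1 read 43.6, 50.1 and 46.9 RPKM in mms21RINGD and 31.9, 36.0 and 39.99 RPKM in WT (0.38 ± 0.10, limma adjusted p = 0.0187), without overlap; the call was lost without mms21RINGD replicate 2 or 3 or WT replicate 2, and under quantile normalization or median-of-ratios scaling. The reference carries alpha information at MAT, so in a cell of mating type a the transcript of MATa1 falls on HMRA1 and the cassette cannot be told apart from it. Markers of both mating types were listed for this reason. The a markers other than BAR1 read at least 82.9 RPKM in every library, and the alpha markers at most 16.2 RPKM. Both strains thus read as mating type a, and how much of HMRA1 came from the cassette was not tested. Of the 6 a markers 5 were tested, with AGA2 higher (0.41), MFA2 (-0.13), STE2 (-0.24) and STE6 (-0.19) lower and MFA1 not called (0.41), and BAR1 was listed at 0 in 5 of 6 libraries; with quantile normalization 2 were higher and 1 lower, and with median-of-ratios scaling none higher and 3 lower. STE2, the alpha-factor receptor, read 410, 401 and 407 RPKM in mms21RINGD and 422, 510 and 508 RPKM in WT.

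The 4 alpha markers were low throughout, and 3 were higher and none lower. STE3, the a-factor receptor, read 2.83, 2.15 and 2.43 RPKM in mms21RINGD and 0.747, 0.847 and 0.912 RPKM in WT. SAG1, the alpha-agglutinin, read 15.9, 15.2 and 16.2 RPKM in mms21RINGD and 8.98, 7.48 and 7.10 RPKM in WT. Of the pheromone genes, MF(ALPHA)1 read 1.04, 1.42 and 2.29 RPKM in mms21RINGD and 0.489, 0.769 and 0.0924 RPKM in WT and was called higher (0.83), while MF(ALPHA)2 read 5.15, 5.62 and 6.71 RPKM in mms21RINGD and 6.82, 5.41 and 4.82 RPKM in WT and was not called (0.03). Quantile normalization gave 1 higher and 1 lower of the 3 alpha markers that passed its filter. STE3 and MF(ALPHA)1 passed the filter only through their mms21RINGD values. Whether this low signal of the alpha markers bears on the cassettes was not tested.

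Among 23 genes of silencing and telomere factors, which lie mostly outside the zone, 6 were higher and 2 lower, with a median of 0.10. SIR3 read 15.6, 14.9 and 16 RPKM in mms21RINGD and 10.1, 8.02 and 8.53 RPKM in WT (0.75 ± 0.09, limma adjusted p = 0.00119). SIR2 read 13.4, 14.4 and 13.7 RPKM in mms21RINGD and 18.4, 18.5 and 17.2 RPKM in WT (-0.36 ± 0.06, limma adjusted p = 0.00477). With quantile normalization 1 of the 23 was higher and 19 were lower, so the balance of this list depended on the scaling. SIR1 and the histone deacetylase gene RPD3 are themselves end genes, 24.3 and 18 kb from an end, and neither was called.

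The 85 end genes below the filter were read as counts. Of these 72 have a near-identical copy. Their summed reads per M reads of the library were 23.3, 23.6 and 23.3 in mms21RINGD and 11.9, 11.7 and 10.7 in WT. The 126 genes farther away that missed the filter summed to 75.5, 93.0 and 81.3 in mms21RINGD and 46.4, 41.0 and 44.1 in WT on that scale, so both sets were higher in every mms21RINGD library. Higher without overlap were 27 of the 85 and lower 1, beside 22.5% and 0.506% of all 395 features below the filter.

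Of the 13 end genes below the filter that have no copy, 6 were higher without overlap, named here after their values were seen. YFR057W, a natural target of Sir silencing 0.645 kb from the right end of chromosome VI, had 4, 4 and 4 reads in mms21RINGD and 1, 0 and 1 reads in WT. The neighbouring pseudogenes YCL075W and YCL074W, at 2.13 and 2.82 kb from the left end of chromosome III, had few reads. YCL075W had 3, 2 and 5 reads in mms21RINGD and 0 in every WT library, and YCL074W had 8, 11 and 4 reads in mms21RINGD and 1, 1 and 1 reads in WT. YPS5, a relative of YPS6 at 8.47 kb, had 11, 10 and 12 reads in mms21RINGD and 2, 1 and 1 reads in WT. The other two were YHL037C and PXP3. These counts lie near the floor of 3 reads, and no fold is given.

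At the 30 kb limit, just inside lie the retrotransposon genes YBL100W-A and YBL100W-B, with near-identical copies, at 0.79 and 0.78, and the vacuolar transporter gene AVT2 at 0.25, not called, in log2 fold change. Just outside lie DAN4 at 0.42, YFL051C at 1.08 and ATP15 at 0.22, of which only YFL051C was called. YBL100W-A and DAN4 passed the filter only through their mms21RINGD values.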

How the data were processed

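RNA was sequenced from 3 mms21RINGD and 3 WT libraries. The authors deposited one table of RPKM values per gene; per the submitters' processing notes the build was sacCer3 and the tools included TopHat2 2.0.8, CASAVA 1.8.2 and edgeR 3.8.6. The sources used here give no read counter, gene annotation, strand setting or treatment of multiply aligned reads, and reads of overlapping genes therefore cannot be told apart (30 of the 353 genes overlap another annotated gene, 11 of them on the other strand).

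Row names were matched to the RefSeq annotation of R64, which is sacCer3: 6048 of 7126 by locus tag, 114 by symbol, 964 not at all. Sequences are from RefSeq R64. RPKM times gene length gave whole reads (within 0.02) for 99.8% of each library's values over 0, and so the depths; totals were those of the table.

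Values were tested as log2(RPKM + 1) with limma 3.58.1 (R 4.3.3; trend, two-sided, Benjamini-Hochberg over all 6731 features averaging 1 RPKM or more), without a block for replicate number. Tables were made with Python 3.11.15 and pandas 2.3.3. Copies were found with blastn 2.17.0 (identity of at least 95% over at least 50% of the gene). The matched share is that of genes more than 30 kb from an end in bins of mean WT RPKM (edges 1, 3, 10, 30 and 100), weighted by the number of end genes. Eligible for naming were listed genes in the zone, MMS21, the 3 genes on either side of 30 kb and the 3 most highly expressed. Also eligible were the 12 largest rises and falls among called genes averaging 10 RPKM or more and without overlap. Not all eligible genes are named, and some other genes were named after their values were seen. The genes, lists and tests were chosen with earlier results of these data known. The splits by copies, promoter letters and Y' elements, and the alternatives for the distance zones, were chosen after seeing the data. Alternatives were the pseudocount, the filter, the scaling, voom on recovered reads, a replicate block, other distances and leaving out each library. The fitting step was tested on simulated data.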

Additional observations from a re-analysis of the deposited data

How the results depend on the processing

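The count of 151 genes higher stayed within 1.5 times for the pseudocount, voom, median-of-ratios, no filter and leave-one-out settings; a filter at 10 RPKM gave 64, a limit of 20 kb 81 and quantile normalization 77. The 14 lower became 41 with median-of-ratios scaling, 64 with quantile normalization, 5 at 20 kb and 23 at 40 kb, and 3 to 22 leaving out single libraries. The 42 higher by 2-fold became 64 (pseudocount 0.1), 13 (pseudocount 5), 22 (filter at 10), 23 (median-of-ratios), 14 (quantile), 67 (voom) and 24 (20 kb). The median of 0.47 became 0.28 (pseudocount 5), 0.27 (filter at 10), 0.25 (median-of-ratios) and -0.018 (quantile). The 2.42 points over matched genes became -0.76 without the filter, 1.36 (filter at 10), 4.13 (median-of-ratios), 3.41 (quantile), 3.97 (40 kb), 5.29 (no copies), 3.73 (families kept) and 6.5 (bins of all 6 libraries), and -0.19 to 2.56 leaving out single libraries. The median deviation of 0.029 became -0.0098 without the filter, 0.055 (filter at 10), 0.056 (no copies), 0.083 (bins of all 6 libraries), 0.013 (pseudocount 5) and 0.046 (40 kb), and 0.013 (without mms21RINGD replicate 2) to 0.047 (without WT replicate 2) leaving out single libraries. Within 10 kb, the -21.0 points became -15.2 (filter at 10), -10.2 (median-of-ratios), -9.47 (quantile), -12.2 (no copies), -12.4 (families kept) and -13.4 (bins of all 6 libraries), and -22.8 to -13.3 leaving out single libraries, and were negative in each. Of listed genes, 42 were higher and 3 lower; a filter at 10 left 12 higher, median-of-ratios gave 9 lower, quantile 18 and 13, and leaving out single libraries 26 to 45 higher and 0 to 7 lower. Single genes that turned with quantile normalization were FLO9 (-0.24), FLO1 (-0.16), MAL33 (-0.042), MAL31 (-0.34), AAD4 (-0.070), FIT1 (-0.00053), MAL11 (-0.10), IMA5 (-0.23), AYT1 (-0.22), AAD14 (-0.22), BDS1 (-0.018) and FRE5 (-0.18). The causes were not tested.

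Same-numbered replicates did not pair (correlations of their deviations -0.14, 0.05 and -0.10 over 6731 features). With a replicate block 120 end genes were higher and 10 lower, beside 2250 and 549 of all 6731 features. The share within 10 kb then stood -14.3 points from matched genes. Of 63 named genes that were called, 38 kept the call in every leave-one-out fit that tested them. THI13, counted among these, fell below the filter without mms21RINGD replicate 2. Depth limits the 85 genes under the filter, and copies limit 111; neither scaling shows absolute RNA amounts.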

Other observations

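Some rises of at least 2-fold fell on neighbours at 1 end, named here after their values were seen. At the left end of chromosome XV the uncharacterized genes YOL163W, YOL162W and YOL160W, 9.60, 10.1 and 14.3 kb from the end, were higher by 1.29, 1.10 and 1.22 on the log2 scale. YOL163W read 7.94, 8.40 and 7.70 RPKM in mms21RINGD and 3.18, 2.07 and 2.89 RPKM in WT. At the left end of VI, SNZ3 (1.30), AAD6 (1.33), the amino acid permease gene AGP3 (1.21) and AQY3 (1.16) were higher; AGP3 read 6.62, 6.62 and 7.14 RPKM in mms21RINGD and 2.62, 2.2 and 2.28 RPKM in WT. At the left end of XI, MCH2 (1.09), of the monocarboxylate transporter family, SRY1 (1.54) and the lactate and pyruvate symporter gene JEN1 (1.07) were higher, while URA1 was lower (-0.39). MCH2 passed the filter only through its mms21RINGD values, so its direction was set by the filter. JEN1, a gene that glucose represses, read 9.48, 8.43 and 7.73 RPKM in mms21RINGD and 4.41, 3.03 and 3.28 RPKM in WT. LYS1 of lysine synthesis, at the right end of IX, read 45.6, 48.0 and 49.2 RPKM in mms21RINGD and 24.0, 21.1 and 17.4 RPKM in WT (1.17).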
